A study of Mus musculus with 16 samples.

Results

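The probes for the immunoglobulin heavy chain were 69 of the 41174 probes on the array, and they were chosen by name. A probe was taken where its gene name began with Igh, or where its description named an immunoglobulin heavy chain, and Ighmbp2, probes for light chains, binding proteins and receptors were left out. The 69 probes made 55 units, a unit being the probes that share a name and a part of the heavy chain. Of the units, 49 were classed as variable and 6 as constant, and each was represented by its brightest kept probe. A probe was classed as constant where the files place it in the constant part of the locus on chromosome 12. Probes on chr12_random took the class with which they share the longer run of bases. All others counted as variable, also those with no position in the files. Of the 20472 genes and units that passed the filter on dim probes, 52 were heavy chain units, 46 variable and 6 constant. The 3 units that did not pass (Igh, LOC238427 and LOC641008) were variable and were well above background on 3 to 4 of the 16 arrays.

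A heavy chain is made by joining 1 of many V segments to a D and a J segment, and the joined exon is then spliced to the exons of a constant region. The first constant regions used by a B cell are mu and delta, and class switching can replace them by gamma, epsilon or alpha. A productive heavy chain on one chromosome normally stops further rearrangement on the other, so a B cell that receives a ready-made heavy chain transgene usually uses few of its own V segments. Receptor editing is the replacement of a chain of the receptor by a further rearrangement. The mu chain ends in a membrane anchor or, after use of an earlier polyadenylation site, in the tailpiece of the secreted form.

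All samples were follicular B cells, the recirculating B cells of lymphoid follicles, from mice of strain C.B17. WT cells (n = 2) came from wild type mice. Auto.Neg cells (n = 2) carried the anti-thymocyte receptor VH3609µ/Vk21-5κ as transgenes in Thy-1 knockout mice, which lack its antigen. Auto.Pos cells (n = 2) carried transgenes for a receptor that binds goblet cells of the intestine, VH3609µ/Vk19-17κ, for which another label field writes Vkappa17-17kappa, and no Thy-1 knockout is named for them. Non-edited and Edited cells (n = 1 each) were from VH3609t +/- x Vk21-5Tg +/- mice that were also Thy-1 knockout. The 6 samples that are not WT thus share VH3609, and they are called the VH3609 samples here. What drives each transgene, what the t of VH3609t stands for, how the Edited and Non-edited cells were told apart and whether replicate samples were taken from different mice are points the sources used here do not give. p-values therefore measure only the spread between these samples, which may be technical.

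Each sample was hybridised on 2 arrays, with the dyes exchanged, against a reference of 6 pooled cell lines, which gave 16 arrays. The lines were EL4, J558, R1, RS2, P388d and DN3. J558 is a myeloma line, so the reference holds heavy chain RNA of its own, and a log2 ratio near 0 means a signal like that of the reference. Where a unit was not well above background in a sample, such a ratio can also mean little signal in both channels. ENSMUST00000095369, for example, gave -0.14 to 0.06 in Auto.Neg and Auto.Pos, with 0 of their arrays well above background. A value is the log2 ratio of a sample to the reference, averaged over its 2 arrays, and differences between samples are differences of these ratios. On each array 61.9% to 81.9% of probes were well above background by the mark of the scanner software, and 0 arrays had a saturated heavy chain spot. Follicular B cell markers were measured for 8 of 8 listed genes (among them Ms4a1, Cd79a, Cd79b, Fcer2a, Cr2 and Cxcr5), and their summed intensity was 1068983 to 1282747 per sample. The summed intensity of 6 measured T cell markers was 5975 to 17459, and that of 7 macrophage markers was 9369 to 72107.

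The sources do not agree on which array belongs to which sample. Of the 16 columns of the deposited series table, 6 matched the scanner file of the same label best and 10 matched another array. The mismatches touch both Auto.Neg samples, Auto.Pos sample 1 and both WT samples, while Auto.Pos sample 2, Non-edited and Edited matched in both sources. Between the 2 arrays of a sample, the median absolute difference over the variable units was 0.11 to 0.93 in the scanner files, the highest being WT sample 2, and 0.20 to 1.72 in the table as labelled. All values below follow the scanner files. Against the red over green ratios of their own arrays, the 2 columns of a sample correlated in opposite directions, as the dye swap requires, except in Auto.Neg. There the values were 0.8778 and 0.8379 in sample 1 and -0.93 and -0.9655 in sample 2. A column of each Auto.Neg sample thus runs as reference over sample, here called a turned column. Read by the labels of the table, turned columns included, the median difference of the variable units between the VH3609 groups and WT would be -0.53. That between Auto.Pos and WT would be 0.45. The comparison of Edited with Non-edited does not turn on this choice of labels.

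The probes are 60 bases long, and V segments resemble each other, so a probe can bind transcripts of more than its own segment. Over the 56 probes of variable units, the longest run of letters shared with a probe of another unit was 6 to 43 bases, with a median of 23, and 42 probes shared a run of at least 15 bases. The first 3 probes shown are of the 2 variable units that were higher in every VH3609 sample than in WT, with a second probe of the same name that was not. All are 5′ to 3′ in the letters of the scanner files, with the longest run shared with another variable unit in capitals. Positions are those of the files (mm7, minus strand), and some span fewer bases than the probe.
LOC619916, brightest probe, chr12:113252694-113252753: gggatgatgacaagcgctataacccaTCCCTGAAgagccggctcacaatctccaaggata
LOC619916, second probe, chr12:113245473-113245532: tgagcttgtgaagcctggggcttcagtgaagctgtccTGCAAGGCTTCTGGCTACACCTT
ENSMUST00000074486, chr12:112815501-112815560: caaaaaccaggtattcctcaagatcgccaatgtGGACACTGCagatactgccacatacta

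The brightest LOC619916 probe shared a run of only 8 bases with any other variable unit, and the ENSMUST00000074486 probe one of 9 bases. The second LOC619916 probe shared 23. The next probes belong to units that differed most between VH3609 samples and WT or between Edited and Non-edited, and they are shown for the long runs they share.
AY182513, chr12:111581219-111581278: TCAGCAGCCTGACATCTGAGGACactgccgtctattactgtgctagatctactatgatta
Igh-VJ558, variable part, chr12:111118840-111118898: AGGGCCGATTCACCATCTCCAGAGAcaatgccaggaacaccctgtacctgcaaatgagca
M19902, chr12:111146928-111146981: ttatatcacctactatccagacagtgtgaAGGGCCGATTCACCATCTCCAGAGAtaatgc
AY172876, chr12:112417642-112417701: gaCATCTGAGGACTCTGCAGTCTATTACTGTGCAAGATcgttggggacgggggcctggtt
ENSMUST00000076933, chr12:112059910-112059969: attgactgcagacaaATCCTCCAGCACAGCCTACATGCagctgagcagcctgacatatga
LOC619994, chr12:113596991-113597050: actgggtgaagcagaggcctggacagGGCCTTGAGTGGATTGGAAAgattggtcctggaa

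The Igh-VJ558 and M19902 probes held the same run of 25 bases. Probes that share such runs may bind the same transcripts, which was not tested. The longest shared run, 43 bases, was between the variable part of Ighg and LOC628098, which RefSeq names Ighv5-12-4 (GRCm38 symbols, used for names only).
Ighg, variable part, chr12:111380688-111380747: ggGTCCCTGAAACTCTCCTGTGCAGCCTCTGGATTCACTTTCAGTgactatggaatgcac
LOC628098, chr12:111283794-111283853: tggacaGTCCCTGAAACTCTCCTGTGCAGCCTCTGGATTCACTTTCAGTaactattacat

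Variable units were lower in the cells with a supplied heavy chain than in wild type cells, across nearly the whole set. In WT the median over the 46 units was 2.81 in sample 1 and 1.78 in sample 2. It was 0 and -0.15 in the Auto.Neg samples, -0.29 and -0.05 in the Auto.Pos samples, -0.36 (Non-edited) and 1.01 (Edited). The 2 WT samples thus lay above all others and Edited lay between, and the remaining 5 lay close together. The number of units well above background on both arrays was higher in WT and Edited than in these 5, with 46 and 43 (WT), 44 (Edited), 34 and 30 (Auto.Neg), 27 and 25 (Auto.Pos) and 20 (Non-edited). The filter used the same mark, so these counts are partly set by it. Of the 46 units, 43 met the mark in both WT samples and 30 in at least 2 VH3609 samples other than Edited. Of all probes, 64.7% to 81.9% met it on WT arrays, 66% to 66.2% (Edited) and 61.9% to 75.7% on the others.

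**Figure D1:**
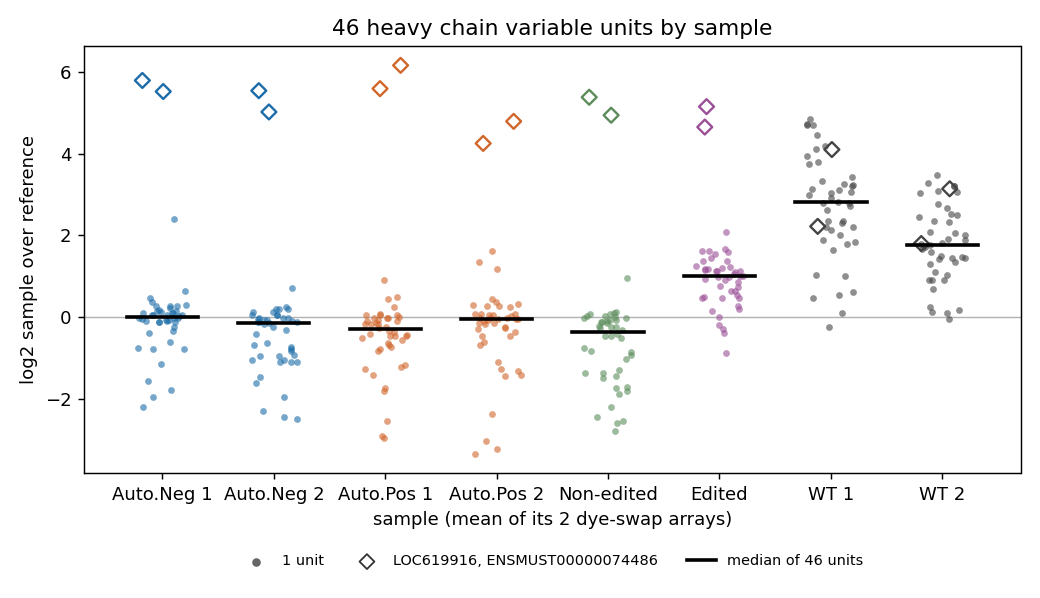
Each point is 1 variable unit in 1 sample, as the log2 ratio of sample over reference averaged over its 2 dye-swap arrays, and bars are medians of the 46 units. Diamonds mark LOC619916 and ENSMUST00000074486, which are higher in each of the 6 VH3609 samples than in WT, while the WT medians of 2.81 and 1.78 lie above the other medians.

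The mean of the 4 VH3609 groups, each with equal weight, was lower than WT for 44 of the 46 variable units, where 47.5% of all genes and units tested were lower. The median difference was -2.54, against 0.01 over all genes and units, and 38 units were at least 2-fold lower, against 1.39% of all. For 40 of 46 units every VH3609 sample lay below both WT samples, which held for 3.84% of all. At an unadjusted p under 0.05, limma marked 43 of the 46 units and 6.84% of all genes and units. After Benjamini-Hochberg adjustment over the whole table limma called 0 heavy chain units and 0 genes (0%), and the smallest adjusted p of a variable unit was 0.154. The call depends on the setting, with 21 heavy chain units called on the sample channel alone (0.22% of all genes and units), 8 after scale normalization between arrays (0.0488% of all), 1 with the scanner software's log ratio (0.00977% of all) and 33 with slide as a random block over the 16 arrays (1.57% of all).

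A unit that passed the filter only through WT had to be lower elsewhere, so the counts were repeated without that route. With no filter, 47 of all 49 variable units were lower, with a median of -2.34, and 48.9% of all genes were. For 41 of the 49 every VH3609 sample lay below both WT samples, beside 3.95% of all genes. Among the 20 variable units well above background on all 16 arrays, 18 were lower with a median of -3.02, and 45.2% of all such genes were. For 17 of these 20 every VH3609 sample lay below both WT samples, beside 3.86% of all such genes. In these bulk samples, fewer cells that use a segment and less of its RNA per cell cannot be told apart.

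The unit with the most negative difference was AY182513, a rearranged V region clone. Its values were -1.14 and -1.95 (Auto.Neg), -1.74 and -1.31 (Auto.Pos), -2.21 (Non-edited), 0.19 (Edited), and 3.34 and 2.46 (WT). No VH3609 sample reached the WT samples, and Edited stood alone between them. The difference was -4.17 (SE 0.36), or 18.0-fold lower, with a limma adjusted p of 0.154.

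The variable part of Igh-VJ558, named in the files for the J558 family of V segments, has 5 probes. Whether each is of that family was not tested. The brightest gave -1.96 and -2.49 (Auto.Neg), -2.95 and -3.34 (Auto.Pos) and -2.79 (Non-edited). Edited gave 0.76, and WT gave 2.82 and 1.75. The groups again did not overlap. The difference of the VH3609 groups from WT was -4.13 (SE 0.36, limma adjusted p 0.154), and that of Auto.Pos alone was -5.43 (SE 0.43, limma adjusted p 0.0838), or 43.0-fold lower. This adjusted p, shared with other variable units, was the smallest of a heavy chain unit in the 6 comparisons. The other probes of the unit differed less, by -3.91 to -2.83 for the VH3609 groups minus WT and by -3.69 to -3.03 for Auto.Pos minus WT.

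AY172876, another rearranged clone, gave 0.11 and -0.25 (Auto.Neg), -0.63 and -0.07 (Auto.Pos), -0.51 (Non-edited), 1.37 (Edited) and 4.71 and 3.48 (WT). Its difference was -3.98 (SE 0.39), and all VH3609 samples lay far below WT. L22886, a rearranged V region of the cell line Cyd-1, gave -0.10 and -1.10 (Auto.Neg), -0.47 and 0.25 (Auto.Pos), -1.89 (Non-edited), 1.01 (Edited), and 3.8 and 3.20 (WT). It differed by -3.90 (SE 0.38). LOC380824, which RefSeq names Ighv1-66, differed by -3.76 on its brightest probe and by 0.15 on its second probe, which was well above background on only 8 of 16 arrays.

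Of the 46 kept variable units, 2 were higher in every VH3609 sample than in both WT samples. The brightest LOC619916 probe gave 5.79 and 5.54 (Auto.Neg), 6.16 and 4.79 (Auto.Pos), 5.38 (Non-edited) and 5.15 (Edited). WT gave 2.22 and 1.8, below all 6. The VH3609 groups were 10.6-fold higher, a log2 difference of 3.41 (SE 0.40), with a limma adjusted p of 0.187, and the difference was 3.20 to 3.62 when each replicate was left out in turn. Edited did not stand apart here, since Edited minus Non-edited was -0.23 (SE 0.69). Read by the labels of the series table, with its turned Auto.Neg columns, the difference from WT would be -0.40. That of ENSMUST00000074486, described next, would be -1.02.

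The second probe of the same name, which lies elsewhere in the locus by the files' positions, went the other way. It gave -0.55 and -1.45 (Auto.Neg), -1.31 and -0.51 (Auto.Pos), -1.53 (Non-edited), 1.09 (Edited), and 2.54 and 2.20 (WT). Its difference of the VH3609 groups from WT was -2.96, like that of most variable units. RefSeq gives the name LOC619916 to Ighv1-72, and which of the probes matches that segment was not tested.

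ENSMUST00000074486, described in the files as a V-II region of the SESS type, gave 5.52 and 5.02 (Auto.Neg), 5.59 and 4.25 (Auto.Pos), 4.94 (Non-edited) and 4.65 (Edited). WT gave 4.10 and 3.14, again below all 6 VH3609 samples. Its difference was 1.32 (SE 0.47), or 2.5-fold, with a limma adjusted p of 0.679. LOC619916 and ENSMUST00000074486 were the only variable units of 46 with every VH3609 sample above both WT samples, which held for 5.82% of all genes and units. The sequence of the VH3609 transgene was not used here, and a match of either probe to it was not tested. No unit has VH3609 or VH8 in its name or description in the files. By RefSeq symbol, LOC629849 (Ighv8-2), described below, is of V family 8.

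**Figure D2:**
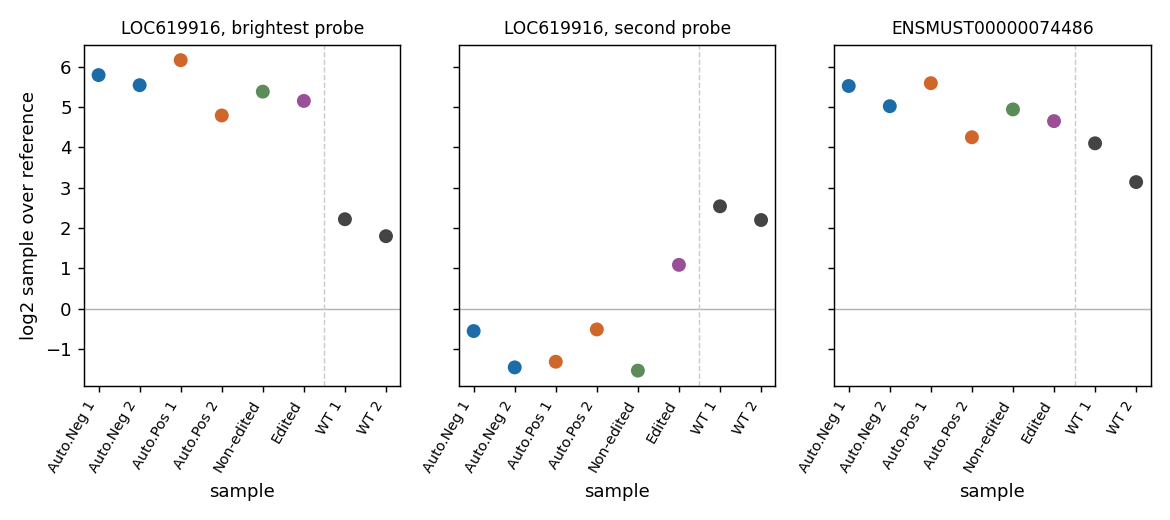
Points are the log2 ratio of sample over reference for 1 probe in each of 8 samples, in 3 panels for the brightest and second LOC619916 probes and ENSMUST00000074486. The brightest LOC619916 probe is 4.79 to 6.16 in VH3609 samples and 2.22 and 1.8 (WT), and the second probe is highest in WT.

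LOC629849, which RefSeq names Ighv8-2, gave -0.23 to -0.04 over the 8 samples and differed by -0.01 (SE 0.15). U26470 gave -0.03 to 0.10 and differed by -0.07 (SE 0.15). They were well above background on 6 and 7 of the 16 arrays, so they have little signal to differ by. They complete the 4 variable units with the most positive differences between VH3609 groups and WT.

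Each receptor transgenic group on its own gave a similar picture, and these comparisons share the WT samples. Auto.Neg was lower than WT for 43 of 46 variable units (42.4% of all), with a median of -2.55 and 0 units called by limma (0% of all genes). At an unadjusted p under 0.05 there were 43 units, against 4.61% of all. Auto.Pos was lower than WT for 44 of 46 (40% of all), with a median of -2.70 and 0 called by limma (0% of all), and 41 units had an unadjusted p under 0.05, against 5.64% of all. Where a unit was not well above background on any array of a transgenic group, only a bound can be given. Each bound is the smaller of one taken from the sample channel and the fold of the ratios. WT exceeded Auto.Pos by at least 1.02-fold to at least 19.7-fold for 17 such units and Auto.Neg by at least 1.11-fold to at least 5.59-fold for 6. The unit at 19.7-fold was X12388.

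Samples scanned on the same day or with the same scanner protocol differed in the same direction. Auto.Pos sample 2 minus WT sample 2, of 1 scan day, had a median of -1.94, with 43 of 46 units lower. Within the first scanner protocol, Auto.Neg sample 2 and Auto.Pos sample 1 minus WT sample 1 had medians of -3.30 and -3.31. Within the second, Auto.Neg sample 1 minus WT sample 2 had a median of -1.94. With WT sample 1 left out, the median difference of the VH3609 groups from WT was -1.92.

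Markers of other cells were also measured beside this difference. The summed T cell markers were 12512 to 17459 in WT and 5975 to 12330 in the VH3609 samples, with 6 of 8 listed genes tested and all measured above 0. The summed macrophage markers were 37623 to 72107 in WT, 20915 to 58713 in Auto.Pos, 16420 to 28128 in Auto.Neg, 9369 (Non-edited) and 10929 (Edited), with 7 of 7 tested. The part of such cells in the variable unit difference was not tested.

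Auto.Pos and Auto.Neg, which share VH3609µ and differ in light chain, antigen contact and Thy-1, showed no called difference in heavy chain variable units. Of 46 units 31 were lower and 15 higher in Auto.Pos (46.6% and 53.4% of all), with a median of -0.10 and a range of -0.95 to 0.81. limma called 0 heavy chain units and 3 genes of the whole table (0.0147%). At an unadjusted p under 0.05 there were 0 variable units, against 1.04% of all. Between the samples that shared a slide, Auto.Pos sample 1 and Auto.Neg sample 2, the median was -0.01, with 24 units lower and 22 higher.

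Edited cells had more signal from variable units than Non-edited cells of the same mouse type. Of 46 units 42 were higher in Edited (44.9% of all), and the median difference was 1.46 against -0.03 over all genes. In both dye orientations 27 of 46 were at least 2-fold higher, with 1 unit lacking an orientation and counted as not, against 1.23% of all genes, and 0 were at least 2-fold lower, against 0.171%. These are single samples scanned on the same day, and the difference has no replicate of its own. With the spread borrowed from the other groups, limma called 0 heavy chain units and 0 genes (0%), and 22 variable units had an unadjusted p under 0.05, against 1.18% of all. With no filter 44 of 49 units were higher (44.7% of all), with a median of 1.40, and of the 20 units above background on all arrays 18 were (44.8% of all), with a median of 2.41.

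The 4 units with the most positive differences were M19902, the variable part of Igh-VJ558, ENSMUST00000076933 and LOC619994. M19902, a rearranged gamma chain V region, gave -2.55 (Non-edited) and 1.12 (Edited). The Auto.Neg samples gave -1.79 and -2.44, the Auto.Pos samples -2.91 and -3.23, and WT 2.79 and 1.6. Its Edited minus Non-edited difference was 3.67 (SE 0.66), or 12.7-fold, and 3.43 and 3.91 in the separate dye orientations. Edited was thus far above the other VH3609 samples and below WT.

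The variable part of Igh-VJ558 differed by 3.55 (SE 0.61) on its brightest probe, with 3.53 and 3.56 by orientation, and by 2.07 to 2.94 on its other probes. ENSMUST00000076933, which RefSeq names Ighv1-7, gave -1.74 (Non-edited) and 1.55 (Edited), a difference of 3.29 (SE 0.70), where WT gave 4.18 and 3.03. LOC619994, which RefSeq names Ighv1-77, gave -1.81 (Non-edited) and 1.18 (Edited), a difference of 3.0 (SE 0.67), where WT gave 3.0 and 2.05. The limma adjusted p of all 4 units was 1. Bounds were taken only where Non-edited was not well above background and Edited was marked so and higher, so their direction is set by that rule. There were 20 such units, with Edited higher by at least 1.01-fold to at least 5.27-fold, the last for ENSMUST00000084869 (Ighv1-18 in RefSeq). For the same unit WT exceeded Non-edited by at least 20.3-fold.

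Edited cells did not reach WT. For 37 of 46 units Edited lay above the other 5 VH3609 samples and below both WT samples, an order held by 0.919% of all genes and units. With no filter it was 37 of 49 units (0.828% of all), and among units above background on all arrays 15 of 20 (0.829%). Taken apart, 39 units in Edited were above the other VH3609 samples (12.3% of all) and 41 were below both WT samples (36.3%). Against Auto.Neg sample 1, scanned on the same day, Edited had a median of 1.06 with 42 of 46 units higher, while Non-edited had a median of -0.47 with 43 lower.

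**Figure D3:**
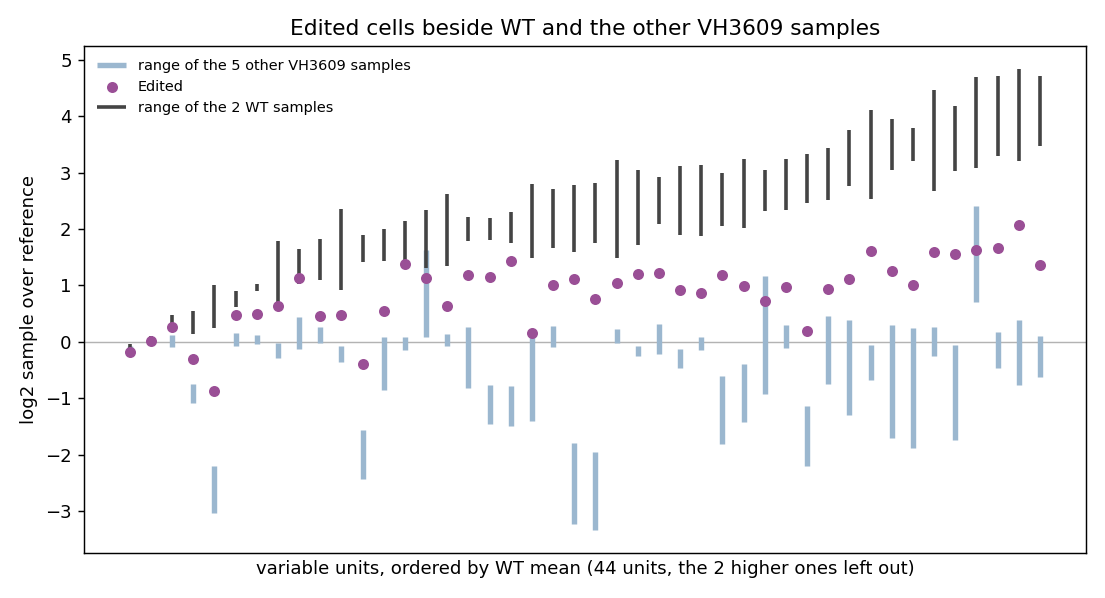
Along the x axis are 44 variable units in order of their WT mean, without LOC619916 and ENSMUST00000074486, and the y axis is the log2 ratio of sample over reference. Blue bars span the 5 VH3609 samples other than Edited, purple points are Edited and black bars span the 2 WT samples. Most Edited points lie between the bars.

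The summed intensity of the B-1 cell markers (5 of 5 tested) was 5360 in Edited and 5430 to 5728 in Auto.Pos, beside 2105 (Non-edited), 1830 to 2856 in Auto.Neg and 2465 to 2781 in WT. Among them Cd9, a tetraspanin, gave 5.29 (Edited), 5.89 and 5.94 (Auto.Pos), 2.78 (Non-edited), 3.57 and 2.99 (Auto.Neg) and 3.83 and 4.02 (WT). It differed between Edited and Non-edited by 2.51 (SE 0.36, limma adjusted p 1), while Cd5 differed by -0.09, Bhlhe41 by -0.13, Zbtb32 by 0.58 and Cd300lf by 1.23 (SE 1.63). The variable unit medians of Auto.Pos, the other group with high Cd9, were -0.29 and -0.05. The part of these markers in the Edited difference was not tested.

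Compared with Auto.Neg, the mean of Non-edited and Edited was higher for 41 of 46 variable units (41% of all), with a median of 0.36. Both share Vk21-5 and the Thy-1 knockout, and the heavy chain is labelled VH3609t in one and VH3609µ in the other. limma called 0 heavy chain units and 0 genes (0%), and 4 variable units had an unadjusted p under 0.05, against 2.59% of all. The mean joins samples that differ, since Non-edited lay below Auto.Neg sample 1 and Edited above it.

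The 6 constant region units of the naming rule did not follow the variable units. Between the VH3609 groups and WT, 4 of 6 were higher and 2 lower, with a median of 0.11, and limma called 0 (0% of all). For 0 of the 6 did all VH3609 samples lie below both WT samples. All 6 were well above background in both arrays of every sample. Outside the rule, the probe ENSMUST00000101001, described under other observations, was higher in WT (7.33 and 6.80) than in every VH3609 sample (4.76 to 6.20). A probe near it, ENSMUST00000100998, overlapped, with 0.50 and 0.29 (WT) and 0.16 to 0.87 in the VH3609 samples.

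The brightest Igh-6 probe (chr12:110940000-110940059), named for the mu chain, was nearly level. It gave 3.83 and 3.86 (Auto.Neg), 3.95 and 3.37 (Auto.Pos), 3.99 (Non-edited), 3.85 (Edited) and 4.02 and 3.79 (WT). The groups overlapped, and the difference of the VH3609 groups from WT was -0.07 (SE 0.22). A second Igh-6 probe (chr12:110942769-110942828) varied more within groups. It gave 4.24 and 1.84 (Auto.Neg), 1.86 and 3.14 (Auto.Pos), 3.57 (Non-edited), 3.32 (Edited) and 3.1 and 2.32 (WT), so that no group stood apart.

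ENSMUST00000003582 is a mu unit whose probe runs into the tailpiece of the secreted chain. Its letters are set beside those of the alpha tailpiece probe, with the longest run they share, 11 bases, in capitals.
ENSMUST00000003582, mu, chr12:110942239-110942298: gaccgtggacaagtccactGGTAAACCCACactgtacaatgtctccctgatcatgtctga
Igh-VJ558, constant part, alpha, chr12:110781031-110781090: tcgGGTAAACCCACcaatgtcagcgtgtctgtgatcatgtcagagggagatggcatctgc

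The mu tailpiece probe gave 2.66 and 2.56 (Auto.Neg) and 3.21 and 2.63 (Auto.Pos). It gave 1.44 (Non-edited), 1.6 (Edited), and 1.62 and 1.22 (WT). The 4 VH3609µ transgenic samples lay above the other 4 without overlap, as did 2.60% of all genes and units, and the VH3609t samples lay within the range of WT. Auto.Pos exceeded WT by 1.5 (SE 0.28), or 2.82-fold, with a limma adjusted p of 0.410. Auto.Neg exceeded WT by 1.19 (SE 0.28), or 2.28-fold, with a limma adjusted p of 0.727. The mean of the VH3609t samples was below Auto.Neg by a log2 difference of -1.09 (SE 0.28, limma adjusted p 0.988). On the scan day they share, Auto.Pos sample 2 exceeded WT sample 2 by 1.41, and Edited lay below Auto.Neg sample 1 by a difference of -1.06. Read by the labels of the series table, with its turned Auto.Neg columns, Auto.Neg minus WT on this probe would be -2.03.

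Plasma cells make the secreted form, so their markers are given beside it. Over 10 of 10 listed genes the summed intensity was 69908 to 75560 in Auto.Neg, 76084 to 77694 in Auto.Pos, 66297 to 80264 in WT, 72047 (Non-edited) and 66140 (Edited). The range of WT spanned Auto.Neg, Auto.Pos and Non-edited, and Edited lay just below it. Of the 10 genes, 3 were higher and 7 lower in Auto.Neg than in WT with a median of -0.19, and 1 was higher and 9 lower in Auto.Pos with a median of -0.35, where limma called 0. Sdc1, the plasma cell marker CD138, was -3.78 and -3.76 (Auto.Neg), -2.82 and -3.46 (Auto.Pos), -1.93 and -2.08 (WT), -4.37 (Non-edited) and -3.86 (Edited). Sdc1 was highest in WT, while Tnfrsf17, another of the markers, was higher in Auto.Neg than in WT by 0.50 (SE 0.37). The part of plasma cells in the tailpiece signal was not tested.

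**Figure D4:**
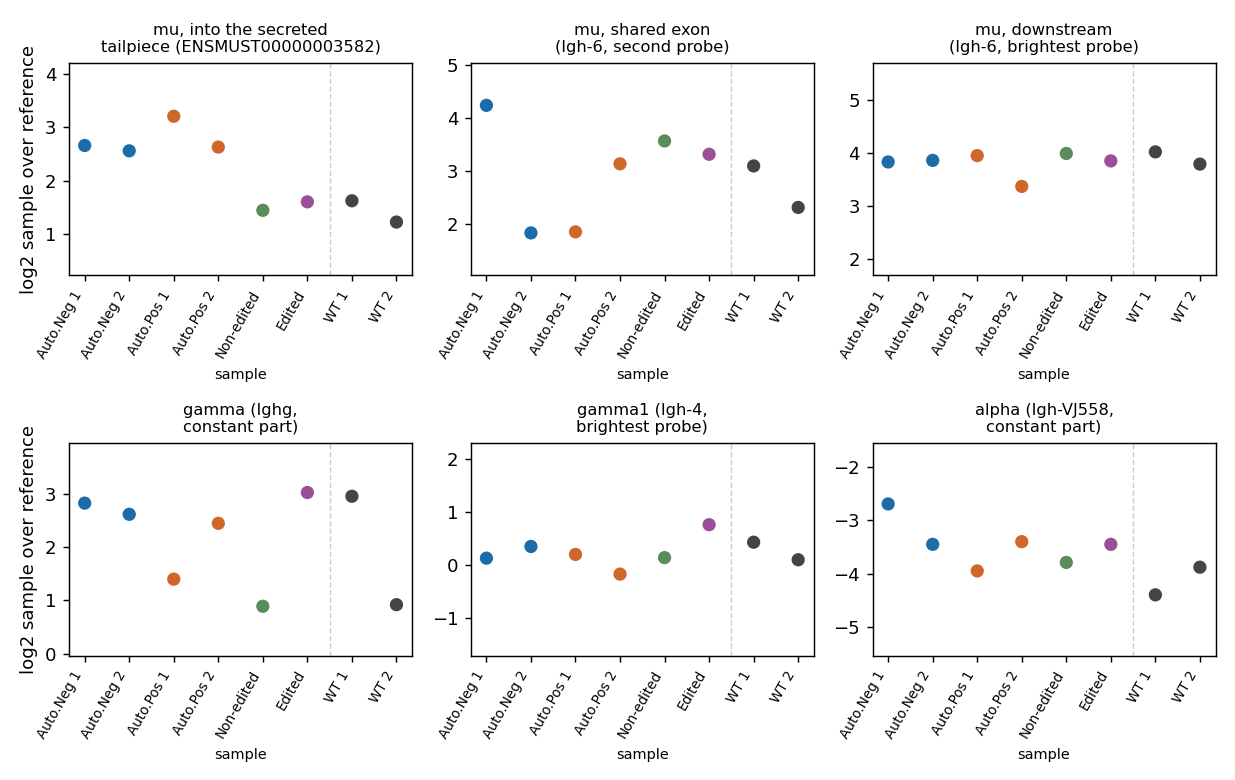
Points are the log2 ratio of sample over reference in each of 8 samples, in 6 panels for constant region probes, whose y axes differ in position but span the same length. The mu tailpiece probe is 2.56 to 3.21 in Auto.Neg and Auto.Pos and 1.22 to 1.62 elsewhere, while the downstream Igh-6 probe is 3.37 to 4.02 throughout.

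The switched classes gave no called difference. The Ighg constant unit, for gamma chains, gave 2.83 and 2.62 (Auto.Neg), 1.40 and 2.45 (Auto.Pos), 0.89 (Non-edited), 3.03 (Edited) and 2.96 and 0.92 (WT). Edited minus Non-edited was 2.13 (SE 1.05), with 2.07 and 2.20 by orientation, but the WT samples differed by nearly as much from each other. Igh-4, for gamma1, gave -0.17 to 0.43 in 7 samples and 0.76 (Edited) on its brightest probe. Another probe gave 0.28 to 0.82 in the 7 samples and 1.54 (Edited), and a further one 0.11 to 0.72 and 1.02 (Edited). Edited minus Non-edited was 0.62 on the brightest probe and 0.94 and 0.53 on the others. Igh-1a was 0.02 to 0.37 over all samples.

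The constant part of Igh-VJ558, for alpha, has 4 probes, and the brightest lay below the reference in every sample. It gave -2.69 and -3.45 (Auto.Neg), -3.95 and -3.40 (Auto.Pos), -3.79 (Non-edited), -3.45 (Edited) and -4.40 and -3.88 (WT). Auto.Neg minus WT was 1.07 (SE 0.38, limma adjusted p 1) on this probe. A dimmer probe of the unit (chr12:110786288-110786346) lay above the reference, at 0.25 to 0.62 over the samples, and the remaining probes lay below it. Auto.Neg minus WT was 0.08 on that dimmer probe and 0.94 and 1.39 on the remaining probes. J558 makes an alpha heavy chain, so the level of the reference bears on this unit.

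Genes that act with the heavy chain showed no called change in any of the 6 comparisons. Of 11 partners in the B cell receptor complex, 8 were higher and 3 lower in the VH3609 groups than in WT, 0 called (0% of all), with a median of 0.16. Cd79a, a signalling partner of the chain in the receptor, differed by 0.96 (SE 0.73), and Cd22, an inhibitory coreceptor, by -0.54 (SE 0.52). Of 4 tested of 8 listed light chain and surrogate light chain genes, 2 were higher and 2 lower, and Vpreb1, part of the surrogate light chain, differed by 0.38 (SE 0.17) and Igll1 by 0.28 (SE 0.32).

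Of 13 tested genes of recombination and class switching, 6 were higher and 7 lower with a median of -0.01. Dclre1c (Artemis), which opens the hairpins of V(D)J joining, differed by -0.98 (SE 0.24, limma adjusted p 0.466), and Trp53bp1, a repair protein of class switching, by -0.57 (SE 0.36). Of 14 transcription factors of the locus, 8 were higher and 6 lower with a median of 0.19. Pax5, which sets B cell identity, gave 1.15 and 1.20 (Auto.Neg), 1.99 and 1.16 (Auto.Pos), 1.29 (Non-edited), 2.18 (Edited) and 0.17 and 0.25 (WT). It differed by 1.35 (SE 0.26, limma adjusted p 0.352), and every VH3609 sample lay above both WT samples, as for 5.82% of all genes and units. Spib, an Ets factor, differed by -0.95 (SE 0.45).

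Of 12 genes of heavy chain assembly and secretion, 7 were higher and 5 lower with a median of 0.09. Pdia4, a disulfide isomerase, differed by 0.93 (SE 0.60), and Hspa5 (BiP), which holds free heavy chains in the endoplasmic reticulum, by 0.68 (SE 0.38). The most distant in the marker lists for VH3609 groups minus WT were Sdc1 at -1.78 (SE 0.22, limma adjusted p 0.198) and Derl3 at -0.59 for plasma cells, and Lck at -1.16 (SE 0.16, limma adjusted p 0.222) and Cd3g at -0.46 for T cells. Macrophage genes Lyz2 and Adgre1 differed by -1.8 and -1.30, the follicular gene Cd79a by 0.96, and the B-1 genes Cd9 and Bhlhe41 by 0.39 and -0.26.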

How the data were processed

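Follicular B cells were profiled on 2-colour Agilent arrays, 16 arrays for 8 samples. Per the labels' protocols, total RNA was amplified and labelled with Cy3 or Cy5. The deposited scanner files hold, per the file headers, spot and background intensity for each channel and a log10 ratio of red over green, written by Agilent Feature Extraction (versions 9.5.1.1, 9.1.3.1, 9.1.1.1). The series table deposited by the authors holds log2 ratios, for which the submitters' processing notes name limma without a version.

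Intensity was analysed in R 4.3.3 with limma 3.58.1, with the data.table package (1.17.8) for reading. Background was corrected by normexp with an offset of 50, and loess was run within each array, giving control spots a weight of 0. Spots marked as outliers entered the loess and were left out afterwards, when spots were averaged per probe. The filter on dim probes asked for a sample channel well above background on the whole dye-swap pair in 2 or more of the 8 samples, and 29640 of 41174 probes passed. The brightest kept probe stood for a gene or unit. Each ratio was signed as sample over reference and the dye-swap arrays were averaged, with 6 genes lacking a sample. limma was fitted with 1 mean per group (3 residual and 2.11 prior degrees of freedom), which assumes that the lone Edited and Non-edited samples vary like the other groups. p-values were adjusted by the Benjamini-Hochberg method over all 20472 genes and units, with a threshold of 0.05. The fit was tested on simulated data.

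The letters IgH in a description were matched as a whole word, and 191 probes would match as part of a word. Named units were all constant units, those called, those with VH3609 or VH8 in the name, the 4 with the largest positive and negative differences in VH3609 groups minus WT and in Edited minus Non-edited, and the 4 of highest signal. Of the gene lists, the 2 with the largest absolute difference in VH3609 groups minus WT were named, except an item that is not reported here. Units named beyond this rule (LOC628098, the Ighg variable part, X12388 and ENSMUST00000084869), Cd9 and the other B-1 genes in Edited, Tnfrsf17 and the other probes of the locus were chosen after their values were seen. Members and lists were chosen with earlier results of these data known. A bound ("at least") sets the brighter group's mean against the higher of the dim probe and the lowest signal well above background in the dim group. It is taken per channel, open to dye bias, and replaced by the fold of the ratios where that is smaller. A bound is given only where the brighter group was well above background on an array and was the higher. The number of arrays limits its precision. Sample numbers did not pair the samples: deviations from the group means correlated at -0.788 (Auto.Neg and Auto.Pos), -0.279 (Auto.Neg and WT) and 0.251 (Auto.Pos and WT). Auto.Neg sample 2 and Auto.Pos sample 1 shared the first scanner protocol, and Auto.Neg sample 1 and Auto.Pos sample 2 the second. Alternatives were other normalizations, filters, probe rules and blocks, the sample channel alone, the series table, and each replicate left out.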

Additional observations from a re-analysis of the deposited data

Results flagged for a closer look

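A probe outside the naming rule stood apart in the VH3609t mice. The probe is named AI324046 in the files, a name that 4 probes of the locus carry, and is placed at chr12:110879535-110881066 (mm7), between the mu and gamma1 probes. It gave 1.31 and 1.58 (Auto.Neg), 1.25 and 1.05 (Auto.Pos), 1.71 and 1.12 (WT), 3.72 (Non-edited) and 4.20 (Edited). Non-edited exceeded the WT mean of 1.42 by 2.31 and Edited by 2.79, which is a signal in data that no comparison of the heavy chain units used. Both are single samples, and the other 6 samples overlapped across their groups.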

How the results depend on the processing

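Calls depended on the setting, while the lower level of variable units in VH3609 samples held in all settings that follow the scanner files. Heavy chain units called, 0 in every comparison as reported, numbered in Auto.Neg minus WT 19 with the sample channel alone (of 49 genes and units called in all), 5 with scale normalization between arrays (of 6) and 31 with the slide as a random block (of 174). In Auto.Pos minus WT they numbered 20 (of 60), 7 (of 7) and 32 (of 281) under these settings, 7 with the scanner software's log ratio (of 16) and 3 with probes above background on all 16 arrays (of 8). In the VH3609 groups minus WT they numbered 21 (of 45), 8 (of 10) and 33 (of 315), and 1 with the log ratio (of 2). The slide block gave 3 in Edited minus Non-edited (of 11). With the series table as labelled, 4 heavy chain units were called in Auto.Neg minus WT, 6 in Auto.Pos minus Auto.Neg and 4 in VH3609t groups minus Auto.Neg, beside 33.7%, 37.4% and 37.9% of all genes and units. These comparisons all use the turned Auto.Neg columns of the table. The slide block fit takes the 16 arrays as its units, with a correlation of 0.526.

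Median differences of the variable units with the log ratio were -3.66 (Auto.Neg minus WT), -3.84 (Auto.Pos minus WT), -3.55 (VH3609 groups minus WT) and 3.44 (Edited minus Non-edited), and with probes above background on all 16 arrays -3.28, -3.27, -3.02 and 2.41. With the series table they were -1.01, 0.45 (reversed), -0.53 and 2.08, where -1.01 and -0.53 use the turned Auto.Neg columns. Auto.Pos minus Auto.Neg went from -0.10 to 1.54 with the table, which uses the same turned columns, and to 0.13 with the all-array filter. Leaving out 1 replicate gave -3.15 to -2.15 for Auto.Neg minus WT, -3.27 to -1.99 for Auto.Pos minus WT and -2.92 to -1.92 for VH3609 groups minus WT, where the smallest sizes came without WT sample 1 and the largest without WT sample 2. With the replicate number as a block 0 heavy chain units were called in each comparison, as without it. The numbers do not pair the samples. With the scanner protocol as a block, limma called 0 genes and units in Auto.Neg minus WT and in Auto.Pos minus WT. At an unadjusted p under 0.05 limma then marked 2021 and 2203 genes and units in these 2 comparisons, against 944 and 1154 without the block.

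Among alternatives added after the data were seen, units lower in every VH3609 sample than in WT numbered 42 without Edited (4.6% of all genes and units) and 40 to 43 without 1 replicate. The share of all was 4.34% to 4.71% without an Auto.Neg or Auto.Pos sample, and 15.1% and 13.3% without WT sample 1 or 2, where 1 WT sample remains. In the 5 samples of the second scanner protocol, with 1 WT sample, 41 were lower (29.9% of all). The count was 17 of the 20 units above background on all arrays (3.86%) and 32 to 41 otherwise (3.52% to 4.94%). In both dye orientations 16 of those 20 were at least 2-fold higher in Edited (1.31% of all), with 1 unit lacking an orientation.

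Named values reversed with the series table, where the groups mix arrays and Auto.Neg has turned columns. For VH3609 groups minus WT these were Cd3g (0.60), Cd79a (-0.96), Cd9 (-1.18), Dclre1c (0.12), ENSMUST00000003582 (-0.66), ENSMUST00000074486 (-1.02), Hspa5 (-0.02), LOC619916 (-0.40) and Sdc1 (0.20). ENSMUST00000003582 also reversed there in Auto.Neg minus WT (-2.03) and VH3609t groups minus Auto.Neg (1.66). Cd3g reversed with the sample channel alone (0.12) and without WT replicate 2 (0.11, the range without 1 replicate being -1.03 to 0.11), and Cd9 (-0.19) with scale normalization. Units whose difference is under its SE were given no direction. How much of the changes with the table comes from its turned columns was not tested, nor was the cause of the other changes.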

Other observations

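Further probes of the heavy chain locus fall outside the naming rule. There were 24, of which 21 were kept, and 14 of these were lower in every VH3609 sample than in both WT samples (3.84% of all genes and units), with Edited between on 13 (0.919% of all). One probe of another name, ENSMUST00000101001 (chr12:110937416-110937475, mm7), lies just beyond the mu probes, where the delta constant region is known to lie. It gave 4.80 and 6.20 (Auto.Neg), 6.14 and 5.04 (Auto.Pos), 4.76 (Non-edited), 4.98 (Edited) and 7.33 and 6.80 (WT). WT was above all VH3609 samples on this probe, and Edited was not between. No test was run on it.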
